A study of Mus musculus with 2 samples.

Results

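The members were 4290 distal DNase I hypersensitive regions that were strong in both states of a mouse erythroid cell model, out of 188044 regions found in any list. DNase I hypersensitive regions are stretches of open chromatin that the enzyme DNase I cuts readily, and DNase-seq counts the cut ends. G1E-ER4 cells are erythroid cells in which Gata1 has been restored, here differentiated for 24 h with 10 nM beta-estradiol, and G1E cells are the untreated erythroid progenitor line that lacks Gata1. G1E-ER4 carries GATA1 fused to the ligand-binding domain of the estrogen receptor, so estradiol switches the protein on. Both lines are labelled male, strain 129 and age E0. Each state was 1 sample with 2 deposited peak lists of 100000 peaks, and no label tells if the 2 came from separate cultures. Cell line, restored Gata1, estradiol and sample differ together between the states and cannot be told apart. Overlapping peaks of the 4 lists were merged. A region was a member when its best peak ranked in the top 25% by signal in every list and its best summit, the summit of its highest-ranked peak, lay over 5000 bp and at most 100000 bp from the nearest protein-coding transcript start. Of all merged regions 13433 (7.14%) passed the rank limit in all 4 lists, and the members were those of them in the distal range. Ranks are given as percentiles, the share of a list's peaks with a signal at or below that of the region's best peak. The members were chosen by their signal ranks in all 4 lists, so percentiles below are descriptions and no test between states was made. The members and the gene lists were chosen with earlier results of these data known.

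Distal hypersensitive regions include enhancers, which raise transcription of genes at a distance, and sites of CTCF, a zinc finger protein that anchors chromatin loops and bounds regulatory domains. GATA1 and GATA2 bind the same short motif, GATA2 acting in progenitors and GATA1 in maturing red cells, and at many erythroid enhancers GATA1 binds beside TAL1, a helix-loop-helix factor held to it by LMO2 and LDB1. The motif pair they occupy is a CTG triplet followed on the same strand by a short gap and the GATA letters.

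The sequences below are mm9 plus-strand DNA of 201 bases centred on the best summit. They are shown so that the GATA motif, found in 25.6% of members, and its pairing with CTG, found in 6.34%, can be read. Some were picked for the pairing, so they do not represent its share in the members. Capitals mark each AGATAA or TGATAA and each composite of CTG, 7 or 8 bases and the GATA letters, on either strand. The first 6 are the highest-ranked member of an erythroid or progenitor gene. They are followed by the 3 highest-ranked members of all that hold a composite, and by both members in introns of Nprl3, next to the alpha-globin genes. The Nprl3 members were chosen after their values were seen.
Runx1, chr16:92801945-92802145: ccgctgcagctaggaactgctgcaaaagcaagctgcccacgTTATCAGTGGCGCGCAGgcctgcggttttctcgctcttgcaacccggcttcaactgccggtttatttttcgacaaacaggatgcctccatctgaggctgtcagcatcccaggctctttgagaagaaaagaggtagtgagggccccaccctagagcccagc
Lmo2, chr2:103734014-103734214: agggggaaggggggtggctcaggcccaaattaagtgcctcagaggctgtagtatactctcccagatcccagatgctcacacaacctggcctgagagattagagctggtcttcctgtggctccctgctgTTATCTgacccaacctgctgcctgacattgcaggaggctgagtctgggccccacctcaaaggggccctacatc
Klf3, chr5:65106008-65106208: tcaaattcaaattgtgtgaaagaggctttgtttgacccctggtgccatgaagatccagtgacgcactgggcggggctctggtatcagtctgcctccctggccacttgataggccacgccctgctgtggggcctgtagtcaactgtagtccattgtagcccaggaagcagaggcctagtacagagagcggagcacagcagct
Bcl2l1, chr2:152643371-152643571: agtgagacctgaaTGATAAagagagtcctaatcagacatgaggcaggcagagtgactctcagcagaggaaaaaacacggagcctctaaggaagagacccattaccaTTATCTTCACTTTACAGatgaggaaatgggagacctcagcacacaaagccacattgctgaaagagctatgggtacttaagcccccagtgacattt
Tal1, chr4:114720941-114721141: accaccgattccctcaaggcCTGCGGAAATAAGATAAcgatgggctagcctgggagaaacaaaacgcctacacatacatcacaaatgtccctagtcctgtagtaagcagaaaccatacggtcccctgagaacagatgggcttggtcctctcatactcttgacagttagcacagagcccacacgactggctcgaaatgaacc
Kit, chr5:75985706-75985906: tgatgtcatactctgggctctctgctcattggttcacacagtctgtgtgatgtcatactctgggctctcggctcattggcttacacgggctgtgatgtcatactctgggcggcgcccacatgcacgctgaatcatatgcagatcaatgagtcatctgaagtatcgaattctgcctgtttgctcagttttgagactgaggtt
Atp2b4, chr1:135722300-135722500: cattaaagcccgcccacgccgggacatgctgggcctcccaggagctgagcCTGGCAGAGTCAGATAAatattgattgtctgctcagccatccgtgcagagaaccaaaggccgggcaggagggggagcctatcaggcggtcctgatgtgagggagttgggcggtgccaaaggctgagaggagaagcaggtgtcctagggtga
Rbm38, chr2:172863827-172864027: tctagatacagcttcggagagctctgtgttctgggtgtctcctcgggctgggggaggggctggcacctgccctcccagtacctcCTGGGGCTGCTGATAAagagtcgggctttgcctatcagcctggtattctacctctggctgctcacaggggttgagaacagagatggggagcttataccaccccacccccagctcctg
Accn2, chr15:99495233-99495433: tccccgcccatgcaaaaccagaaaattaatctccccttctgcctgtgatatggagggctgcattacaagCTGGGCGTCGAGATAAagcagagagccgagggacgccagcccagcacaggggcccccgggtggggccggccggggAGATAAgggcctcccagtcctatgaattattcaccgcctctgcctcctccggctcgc
Nprl3 intron, nearest start Mpg, chr11:32145771-32145971: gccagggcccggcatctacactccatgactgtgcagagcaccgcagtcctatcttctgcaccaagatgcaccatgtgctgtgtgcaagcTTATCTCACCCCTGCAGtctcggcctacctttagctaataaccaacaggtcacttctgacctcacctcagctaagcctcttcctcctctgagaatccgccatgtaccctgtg
Nprl3 intron, nearest start Nprl3, chr11:32150971-32151171: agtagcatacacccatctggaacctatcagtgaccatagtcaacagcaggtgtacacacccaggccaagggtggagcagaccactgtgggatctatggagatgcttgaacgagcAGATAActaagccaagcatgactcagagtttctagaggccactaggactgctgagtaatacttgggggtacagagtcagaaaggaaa

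Runx1, Bcl2l1 and Tal1 each showed a composite, Lmo2 showed a single GATA motif, and Klf3 and Kit showed none in this window. Of the 3 highest-ranked members with a composite, the one nearest to Atp2b4, a plasma membrane calcium pump gene, had percentiles of 99.2 and 99.4 in G1E-ER4, against 99.1 and 99.3 in G1E. The one nearest to Rbm38, which encodes an RNA-binding protein, had 99.7 and 98.6 in G1E-ER4, against 99.2 and 99 in G1E. The one nearest to Accn2, which encodes an acid-sensing ion channel, had 99 and 98.8 in G1E-ER4, against 98.2 and 98.1 in G1E. The states overlapped at Atp2b4 and Rbm38 and not at Accn2. Of the Nprl3 pair, the member nearest to Mpg held a composite on the minus strand and the other held a single GATA motif.

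The next 4 sequences are 81 bases centred on the summit of the highest-ranked members with a CTCF motif there and with little repeated sequence, a choice made after their values were seen. Capitals mark the motif. They are shown because, of the motifs profiled around the summits, CTCF was the most concentrated there.
Ier2, chr8:87163404-87163484: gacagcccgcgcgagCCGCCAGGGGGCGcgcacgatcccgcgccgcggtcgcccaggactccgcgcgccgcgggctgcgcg
Acot11, chr4:106511600-106511680: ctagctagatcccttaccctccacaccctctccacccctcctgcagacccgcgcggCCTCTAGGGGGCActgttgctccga
Lyl1, chr8:87233233-87233313: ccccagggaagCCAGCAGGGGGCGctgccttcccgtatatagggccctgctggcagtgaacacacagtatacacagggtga
Gna13, chr11:109192791-109192871: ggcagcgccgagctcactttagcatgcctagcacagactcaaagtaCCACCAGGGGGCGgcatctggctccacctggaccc

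The region nearest to Ier2, an immediate early gene, lay in a coding exon of Cacna1a, and that nearest to Lyl1, a relative of Tal1, lay in an intron of Nfix. The regions nearest to Acot11 and Gna13 lay between genes. The Ier2 region had percentiles of 99.2 and 99.2 in the G1E-ER4 lists, against 99.2 and 96.2 in the G1E lists. The Lyl1 region had percentiles of 99.5 and 96.6 in the G1E-ER4 lists, against 93.1 and 95.5 in the G1E lists. At Ier2 3 lists had the same value at this rounding, and at Lyl1 both G1E-ER4 values lay above both G1E values.

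One list stood apart. Among the members, the percentiles of G1E-ER4 list 1 had Spearman rho of 0.40 to 0.44 with the other lists, and the other 3 lists had rho of 0.57 to 0.73 among themselves (n = 4290 regions, a description, since the lists share the rank limit and the genome). The best peak came from G1E-ER4 list 1 in 46.5% of members. The median gap between the 2 lists of a state was 4.47 percentile points in G1E-ER4 and 2.64 in G1E, and the median absolute gap between the state means was 2.85. These are unlike measures, since each state mean averages 2 lists and the other gaps are between single lists. The rank limit also bounded all of them, so no conclusion is drawn from their sizes. The member count, median width, share inside genes, GATA, composite and CTCF shares, and shares higher in 1 state are also given without it. The other results, among them spacing, position around the summit, rank groups and gene lists, include it. Read depth is unknown, and with 100000 peaks in every list a rank is relative to the rest of its list. Signals were not compared across lists: their highest signals were 6628 and 23.1 (G1E-ER4), against 9016 and 174 (G1E).

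The members were wider than other distal regions and narrower than strong promoter regions. Their median width was 2260 bp (quartiles 1399 and 3604), against 2917 bp in 7641 strong promoter regions, which passed the rank limit in all 4 lists within 1000 bp of a start, 1589 bp in 10673 weaker distal regions, present in all 4 lists but below the rank limit in 1 or more, and 618 bp in all merged regions. Width comes from the same signal as the rank, so it is a description. A single peak in every list made up 2082 members (48.5%). Best summits of 2 lists lay a median of 15 to 21 bp apart in the members, by pair of lists, and 86.2 to 90.6% of them within 100 bp. In the strong promoter regions the medians were 14 to 31 bp, with 80.8 to 90.8% within 100 bp, close to the members. In the weaker distal regions they were 32 to 51 bp, with 60.8 to 70.1% within 100 bp.

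The members lay a median of 17017 bp from the nearest start (range 5004 to 99419). Of the 4290, 1819 (42.4%) lay upstream of that start. Inside a protein-coding gene were 2055 (47.9%, 95% Wilson interval 46.4 to 49.4), against 56.1% of all merged regions (55.9 to 56.4) and 55.7% of weaker distal regions (54.7 to 56.6). Introns held 1813 members, coding exons 103 and untranslated exons 139. The share inside genes was thus lower in the members than in either of these 2 classes. In strong promoter regions the share was 44.9% (43.8 to 46.0), below that of the members. Of the members in introns, 519 (28.6%) had the start of another gene as their nearest. A start of any annotated transcript, coding or not, lay within 1000 bp of 367 members (8.55%). The Wilson intervals cover counting error only, and neighbouring regions are not independent.

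Motifs were searched within 100 bp of the best summit on both strands, a property the rule did not use. A GATA motif (AGATAA or TGATAA) was present in 1098 members, 25.6% (24.3 to 26.9), against 19.1% of all merged regions (19.0 to 19.3). It was present in 25.8% of weaker distal regions (25 to 26.6), so the members did not differ from these beyond the intervals. Strong promoter regions held it in 4.49%. Strong distal regions of 1 state only, in the top 25% of both its lists and with no peak in either list of the other state, held it more often. The share was 70.5% in the 61 regions of G1E-ER4 only (58.1 to 80.4) and 46.9% in the 177 regions of G1E only (39.7 to 54.2). The same letters in shuffled order (AATAGA or ATAGTA) were present in 7.25% of members (6.51 to 8.06), against 10.8% of all merged regions, 14.8% of the regions of G1E-ER4 only and 12.4% of those of G1E only. These letters were thus less frequent in the members, the reverse of the GATA motif. At least 2 GATA motifs were found in 5.87% of members, against 3.08% of all merged regions and 25.4% of the regions of G1E only.

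The CTCF motif, searched as a degenerate consensus, was in 1179 members, 27.5% (26.2 to 28.8), against 17.9% of weaker distal regions (17.2 to 18.6) and 4.76% of all merged regions (4.66 to 4.86). Strong promoter regions held it in 3.81%, the regions of G1E-ER4 only in 4.92% (1.69 to 13.5) and the regions of G1E only in 1.13% (0.310 to 4.03). At the rank limit used, the members stood above every other class by this motif, with no overlap of intervals. With the top 10% in every list the share was 13.5% of 616 regions, below that of the weaker distal regions. With the rule applied to the other 3 lists, leaving out G1E-ER4 list 1, the share was 24.6%, and leaving out each other list gave 26.6 to 27.6%. The GC box GGGCGGG, a site of SP and KLF proteins, was in 12.1% of members (11.1 to 13.1), against 51.4% of strong promoter regions and 6.40% of all merged regions. Weaker distal regions held it in 5.72% (5.30 to 6.18), so the members lay above these for the GC box too. The CACCC site of KLF factors (CCACNCCC), the kind bound by KLF1 in red cells, was in 13.2% of members (12.2 to 14.3), against 11.9% of weaker distal regions (11.3 to 12.6) and 9.81% of all merged regions. The RUNX site TGTGGTT was in 6.22% of members (5.54 to 6.99), against 6.46% of weaker distal regions, and the AP-1 site TGANTCA was in 7.58% (6.82 to 8.41), against 8.46%. Neither differed from the weaker distal regions beyond the intervals. Median GC content within 100 bp of the summit was 54.2% in the members and 50.7% in all merged regions. Its part in the motif shares was not tested.

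**Figure D1:**
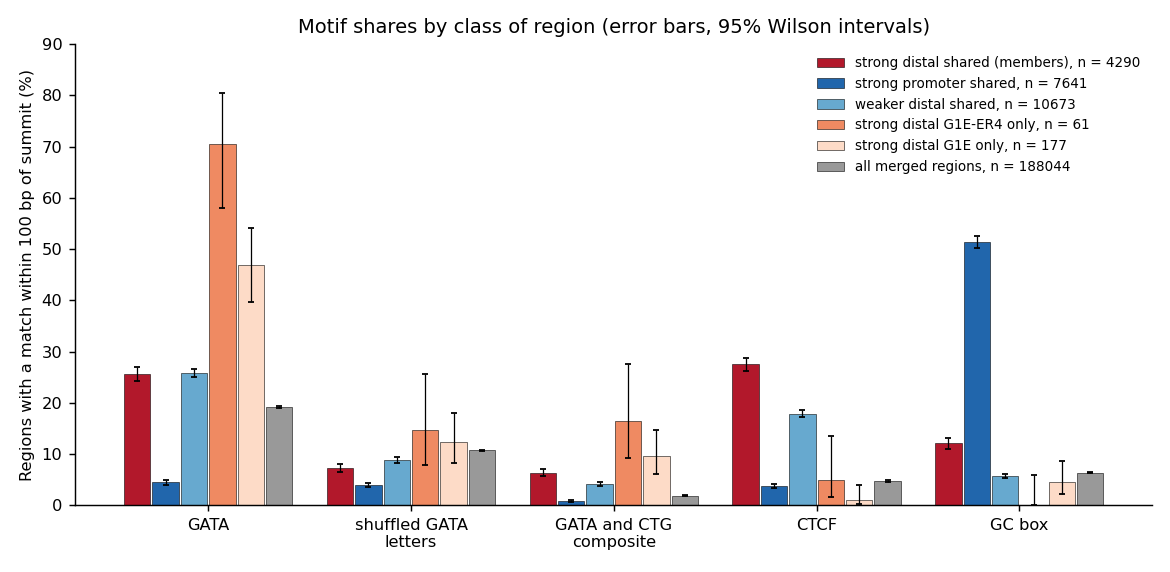
Percent of regions (vertical axis) with a motif match within 100 bp of the best summit, by class of region, with 95% Wilson intervals as error bars. The members hold the CTCF motif in 27.5%, above every other class, and the GATA motif in 25.6%, below the regions of 1 state only.

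GATA and CTCF motifs marked largely separate members. Of the 1179 members with a CTCF motif 124 (10.5%) also held a GATA motif, and of the 3111 without one 974 (31.3%) did. A further 423 members held neither but were rich in CpG (GC of at least 50% and observed to expected CpG of at least 0.6), as CpG islands are. The remaining 1714 (40%) held none of these features. Counted with or without the 2 motifs, CpG-rich regions made up 12.8% of members, against 3.79% of weaker distal regions and 84.6% of strong promoter regions. The 974 members with GATA alone lay inside a gene in 58.1%, the 1055 with CTCF alone in 48.7% and the CpG-rich members in 22.0%. Their median widths were 2502, 1971 and 2610 bp. Summits of all 4 lists fell within 100 bp of each other in 90.3% of the members with CTCF alone, against 68.9% of those with GATA alone and 78.2% of all members. CTCF members were thus the narrower and more sharply placed of the 2 kinds. The weaker distal regions showed the same contrast, with 83.1% for CTCF and 44.4% for GATA.

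The composite of CTG, 7 or 8 bases and the GATA letters was present in 272 members, 6.34% (5.65 to 7.11), against 4.22% of weaker distal regions (3.85 to 4.61) and 1.91% of all merged regions (1.85 to 1.98). Strong promoter regions held it in 0.772%, the regions of G1E-ER4 only in 16.4% (9.16 to 27.6) and the regions of G1E only in 9.60% (6.08 to 14.8). The members thus lay above the weaker distal regions for the composite, though not for the GATA motif, and below the regions of G1E-ER4 only, while the intervals of the members and of the regions of G1E only overlapped. Every gap from 0 to 30 bases was counted to see whether this spacing stood out. CTG stood before the GATA letters with a gap of 8 bases in 170 members and with a gap of 7 in 111. The other 29 gaps gave 26 to 59 members, with a median of 40. With CTG after the GATA letters, gaps of 7 and 8 gave 40 and 36 members. With CAG before them the counts were 43 and 32, and with CAG after them 36 and 48. At these 2 gaps the excess was therefore seen in 1 of 4 arrangements. The highest count elsewhere was 65 members, with CAG before GATA and a gap of 0. The spacing was not particular to the members. With CTG before GATA, gaps of 7 and 8 gave 198 and 255 weaker distal regions, where the other gaps had a median of 93. Among strong promoter regions they gave 25 and 34, where the median was 9.

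**Figure D2:**
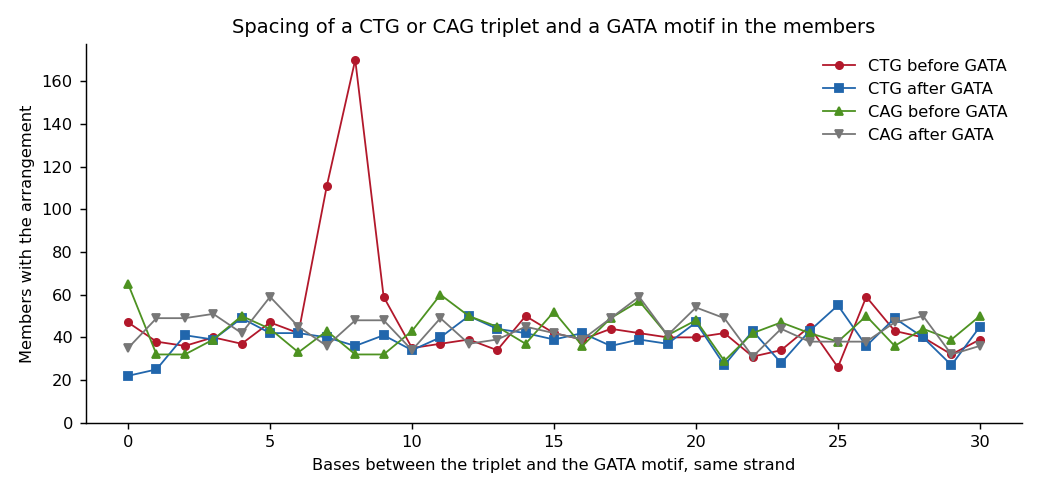
Members (vertical axis) in which a CTG or CAG triplet lies on the same strand as a GATA motif, by the bases between them (horizontal axis) and by order. CTG before GATA reaches 111 at 7 bases and 170 at 8 bases, and the other gaps in that order lie between 26 and 59.

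The motifs were concentrated at the summits to different degrees. Within 25 bp of the summit the CTCF motif had 9.59 matches per 100 members per 25 bp, against 0.195 at 400 to 500 bp, a ratio of 49.1. The GATA motif had 4.98 at the summit and 2.10 in the flank, a ratio of 2.37. The composite had 1.38 and 0.0991, a ratio of 13.9. The composite was thus more concentrated than the GATA motif that forms part of it. The shuffled letters had 0.734 and 1.47, a ratio of 0.499, so they were depleted at the summit. In the weaker distal regions the ratios were 50.5 for CTCF, 1.95 for GATA and 7.86 for the composite.

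**Figure D3:**
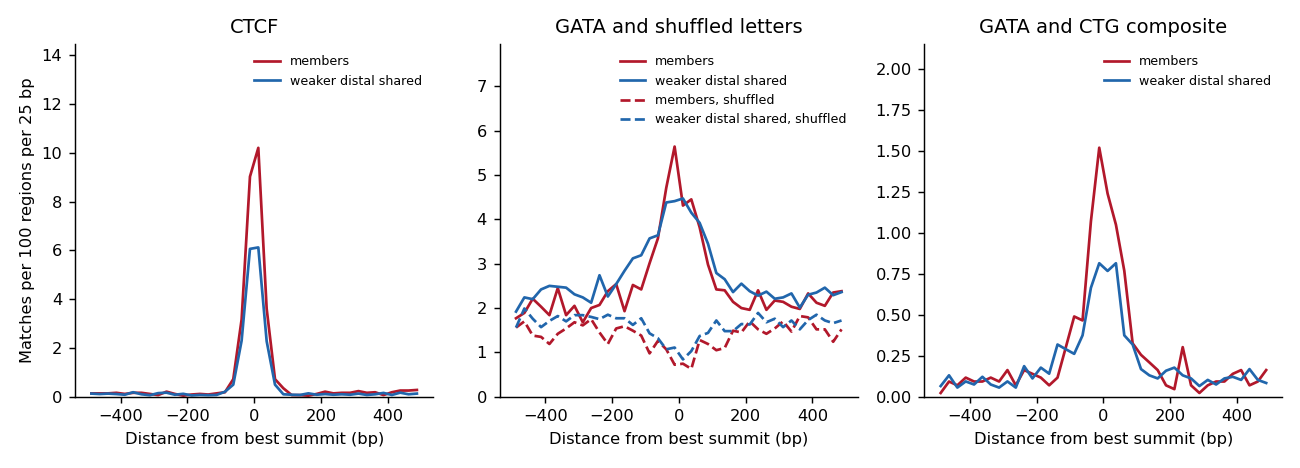
Matches per 100 regions per 25 bp (vertical axes, each panel with its own scale) by distance from the best summit, for the members and the weaker distal regions. CTCF, GATA and the composite peak at the summit, and the shuffled letters (broken lines) dip there.

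The sequence content changed with rank within the members. CTCF motifs were found in 41.5% (33.8 to 49.8) of the 142 members with a mean percentile of 75 to 80, in 34.8% at 80 to 85, 29.2% at 85 to 90, 21.0% at 90 to 95 and 5.78% (3.59 to 9.18) of the 277 members at 95 to 99. The GC box went the other way, with 3.52% at 75 to 80 and 33.9% at 95 to 99. GATA motifs were most frequent in the middle, with 12% (7.61 to 18.3) at 75 to 80, 28.7% (25.9 to 31.6) at 90 to 95 and 19.5% (15.3 to 24.6) at 95 to 99. In the 53 members above 99, 3 held CTCF, 4 held GATA and 24 (45.3%) held a GC box. CpG-rich regions made up 2.82% of the lowest of these groups and 56.6% of the highest. Regions with repeated sequence, in which over 50% of the 20-base tags around the summit occur at more than 1 place in the genome, made up 2.11% of the lowest group, 9.39% at 95 to 99 and 35.8% above 99. The part of CpG content and of repeated sequence in the motif trends was not tested.

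**Figure D4:**
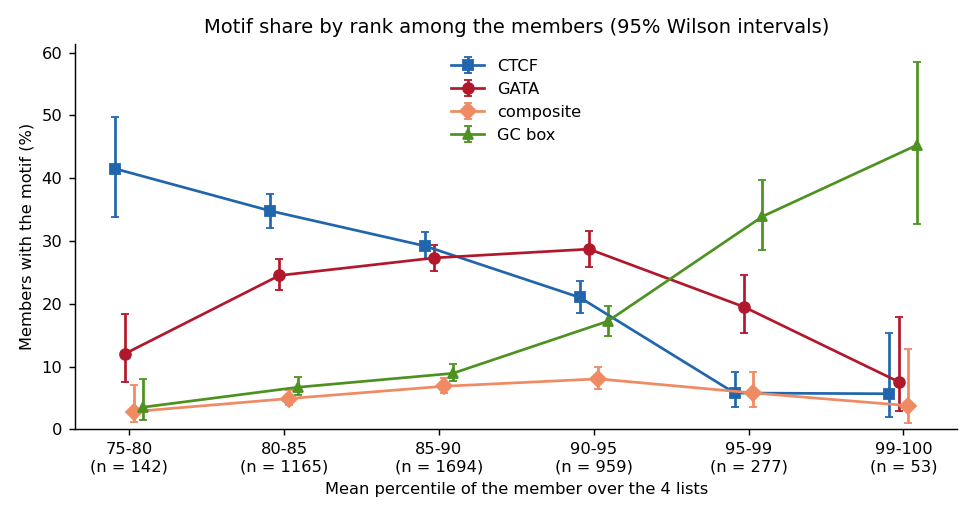
Percent of members with a motif (vertical axis, 95% Wilson intervals) by mean percentile over the 4 lists (horizontal axis). The CTCF share is 41.5% in the lowest group and 5.66% in the highest, and the GC box share is 3.52% and 45.3%.

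The 10 highest-ranked members had percentiles of 99.9 or more in every list and held no GATA, composite or CTCF motif near the summit. The nearest genes of 9 of them were Axin2, Gtpbp4, Cdk8, Gm5614, Rpp21, Cr2, Txndc11, Ly6c2 and Filip1l. Axin2 encodes a scaffold that limits Wnt signalling, Cdk8 a kinase of the Mediator complex and Cr2 a complement receptor of B cells. In 4 of the 10 most tags were repeated, with 70.9% at Gm5614, 98.9% at Txndc11, 86.8% at Ly6c2 and 76.4% at Filip1l. Tags that map to several places were kept in the authors' alignment, so the signal of those 4 regions cannot be assigned to 1 place. At Axin2 and Rpp21 the repeated share was 3.30% and 6.59%. Over all members 149 (3.47%) had over 50% repeated tags.

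Between the states the members as a whole differed little, by values the rule itself had limited. The median percentile was 89.5 and 87.5 in the G1E-ER4 lists, against 86.9 and 87.9 in the G1E lists. Both G1E-ER4 values lay above both G1E values in 977 members (22.8%), where the share over all 29568 regions of the 4 lists was 19.0%. Both G1E values lay above both G1E-ER4 values in 620 members (14.5%), where that share was 16.2%. Since the rule used these ranks, nothing is read from those counts.

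Split by motif, the members gave the following values, a description of ranks that the rule had limited in 1 sample per state. The mean percentile of G1E-ER4 minus that of G1E had a median of 2.07 points in members with CTCF alone, -0.21 in members with GATA alone, -0.74 in members with the composite and 0.75 in all members. Both G1E-ER4 values were higher in 29.2% of the CTCF members and both G1E values in 8.25%. In the GATA members the shares were 18.4% and 22.7%, and in the composite members 14.3% and 26.1%. Weaker distal regions did not have to pass the rank limit in every list. Among them both G1E-ER4 values were higher in 16.8% of those with CTCF and both G1E values in 14.8%. With GATA these shares were 20.6% and 24.8%. Their median differences were -0.92 with CTCF and -2.34 with GATA, against -1.28 in all weaker distal regions. The median gap between the single G1E-ER4 lists over all members, without sign and so another measure, was 4.47 points. The values by motif also differed by list. G1E-ER4 list 1 lay above both G1E lists in 66.1% of the CTCF members, against 51.8% of all members and 37.9% of all regions in the 4 lists. G1E-ER4 list 2 did so in 40.7% of the CTCF members, against 35.3% of all members and 41.6% of all regions. Median differences from the G1E mean were 3.86 points in CTCF members and 1.74 in all members for list 1. For list 2 they were 0.61 and 0.04 points. The CTCF values were thus larger in list 1 than in list 2, and above those of all members in both. Against all regions in the 4 lists the CTCF share was higher in list 1 and not in list 2. G1E-ER4 list 1 lay below both G1E lists in 36.3% of the GATA members and 40.8% of the composite members, against 29.4% of all members and 43.4% of all regions in the 4 lists. In G1E-ER4 list 2 these shares were 42.9% and 46.0%, against 36.0% of all members and 30.8% of all regions. GATA and composite members were thus below G1E more often than all members in each list, whereas against all regions in the 4 lists this held in list 2 and not in list 1.

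Of the 10 single members with the largest differences, 5 in each direction, 8 are described. They were picked for that difference, so their separation by state is fixed by the choice. The member nearest to Islr2, a membrane protein gene, had 77.7 and 77.1 in G1E-ER4, against 91 and 94.2 in G1E, a difference of -15.2 points between the means, and held a composite. The region sat near the rank limit in G1E-ER4 and high in G1E. Myh9, non-muscle myosin, and Lass6, a ceramide synthase, had members with differences of -13.1 each. In the other direction, the member nearest to Tnfrsf13c, a receptor for the B cell factor BAFF, had 96.0 and 91.3 in G1E-ER4, against 76.1 and 76.1 in G1E, a difference of 17.5. The member of Col5a1, a collagen gene, had 98.8 and 94.9 in G1E-ER4, against 77.1 and 82.8 in G1E. Pard6b, a cell polarity gene, Asb1 and Cys1 followed with differences of 16.6, 15.9 and 15.5. Of these 5 members, 4 held a GATA motif and that of Cys1 held CTCF. A region with no limit to its rank could differ by more, since members had to pass in every list.

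**Figure D5:**
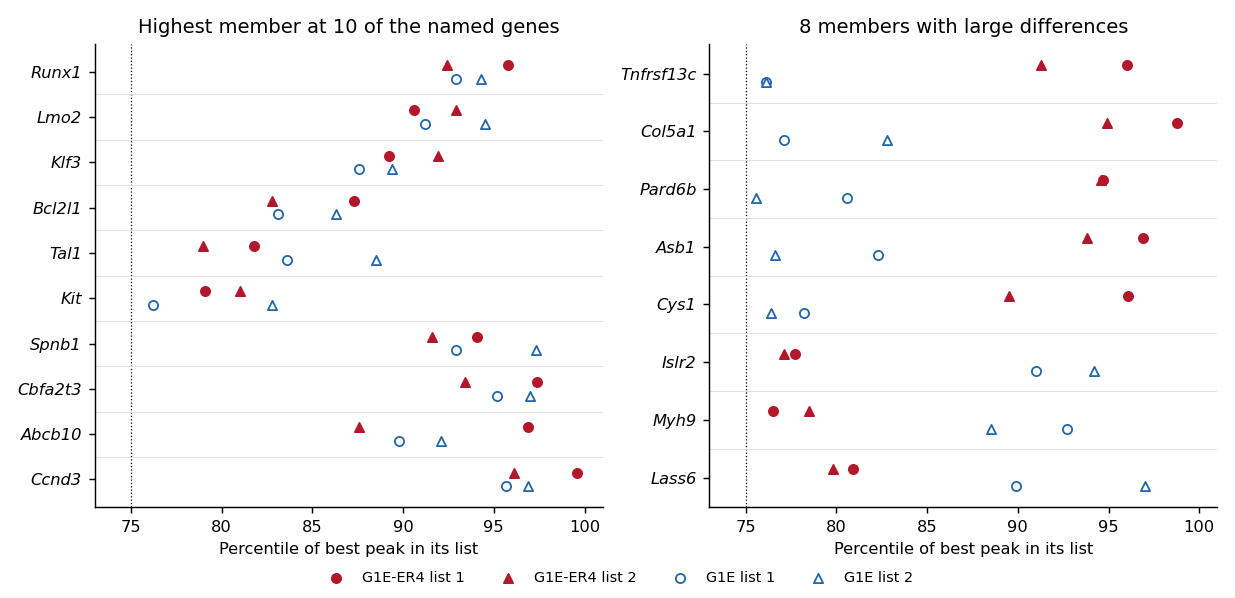
Percentile of the best peak (horizontal axis) in the 2 G1E-ER4 lists (filled) and the 2 G1E lists (open), for the highest-ranked member at 10 of the named genes on the left and for 8 of the 10 members with the largest differences on the right, with the rank limit of 75 as a dotted line. On the left the states separate at Tal1 alone, and the 8 members on the right were picked for their difference.

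Genes of red cell regulation were the nearest gene of a member more often than genes at large, by counts with no test. Of 22 erythroid transcription factor genes 12 (54.5%, 34.7 to 73.1) were the nearest gene of at least 1 member, against 3113 of 22238 protein-coding genes (14%, 13.5 to 14.5). A weaker distal region was nearest to 54.5% of these factor genes, against 26.9% of all genes. The size of each gene and of the space around it was not taken into account. Lmo2, the bridging protein of the GATA1 and TAL1 complex, had 2 members, the higher one 64029 bp upstream of the start. Its percentiles were 90.6 and 92.9 in G1E-ER4, against 91.2 and 94.5 in G1E. Stat5a, which acts below the erythropoietin receptor, had 2 members within Stat3, and the higher one had 95.4 and 89.8 in G1E-ER4, against 90.2 and 90.5 in G1E. The other, with 2 GATA motifs, had 93.3 and 92.5 in G1E-ER4, against 79.7 and 90.5 in G1E. The states overlapped at Lmo2 and at the higher Stat5a member and not at the other. E2f2, a cell cycle factor of terminal erythroid division, had 2 upstream members that both held CTCF. Foxo3, a factor of red cell maturation and oxidative defence, had 2 intron members, at 87.3 and 91.8 in G1E-ER4 against 89.5 and 89.7 in G1E, and at 75.6 and 87.2 in G1E-ER4 against 80 and 84.5 in G1E. The other 8 genes had 1 member each, and were Mafk, Lyl1, Ikzf1, Klf3, Bach1, Gfi1b, Tal1 and Bcl11a. The Tal1 member shown above lay 7990 bp upstream, at 81.8 and 79.0 in G1E-ER4, against 83.6 and 88.5 in G1E, so the G1E values were higher. The Klf3 member, 88520 bp upstream of that repressor's gene, had 89.2 and 91.9 in G1E-ER4, against 87.6 and 89.4 in G1E. Over the 16 members of this list 6 held GATA, 4 held CTCF and 1 held the composite.

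Of 22 progenitor and stem cell regulators 8 (36.4%, 19.7 to 57.0) had a member. Cbfa2t3, a corepressor that joins the TAL1 complex, had 4, all with a GATA motif, 2 of them with the composite. The nearest, 6999 bp upstream of a start, lay in introns of both Cbfa2t3 and the gene model Gm20388. The others lay in introns of Gm20388 alone, which also overlaps Gse1 and Zfpm1. Their place inside a gene rests on that model. The highest had 97.4 and 93.4 in G1E-ER4, against 95.2 and 97 in G1E. Runx1, needed for the first blood stem cells, had 3 members, each with GATA. The highest, shown above, lay in a Runx1 intron 24211 bp downstream of the nearest start, at 95.8 and 92.4 in G1E-ER4, against 92.9 and 94.3 in G1E. The states overlapped at these 2 members. The related factor gene Runx3 had 2 members, each with GATA, and Cd34, a progenitor surface marker, had 2 without GATA or CTCF. The Kit member, in an intron of this stem cell factor receptor gene, was among the lowest, at 79.1 and 81.0 in G1E-ER4, against 76.2 and 82.8 in G1E. Over the 16 members of the list 11 held GATA, 1 held CTCF and 4 held the composite.

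Of 26 heme and iron genes 12 (46.2%, 28.8 to 64.5) had a member. Hmox1, which breaks heme down, had 2 upstream, and the nearer one had 90.5 and 92.3 in G1E-ER4, against 91.8 and 92.0 in G1E. Slc25a37, the mitochondrial iron importer mitoferrin, had 2 members with CTCF, and the higher one had 87.7 and 86.2 in G1E-ER4, against 77.4 and 82.3 in G1E. Ftl1, ferritin light chain, had 1 in an intron of Gys1 with CTCF, at 98.3 and 92.7 in G1E-ER4, against 88.2 and 90.4 in G1E. At these 2 members both G1E-ER4 values were higher. The Ftl1 member lies on chromosome 7. Without chromosomes 3, 7, 9 and 12, 20.1% of members were higher in both G1E-ER4 lists, against 22.8% of all members. The part of the chromosome in the Ftl1 values was not tested. The other Slc25a37 member overlapped, at 80 and 82.8 in G1E-ER4, against 76.9 and 81.1 in G1E. Members of 2 further iron genes went the other way. That of Aco1, a cytosolic aconitase that acts as an iron sensor, had 82.6 and 90.1 in G1E-ER4, against 92.1 and 93.8 in G1E, and that of Steap3, an iron reductase, had 84.8 and 84.9 in G1E-ER4, against 91.6 and 90.4 in G1E. Abcb10, a mitochondrial transporter of heme synthesis, had 1 with 2 GATA motifs at 96.9 and 87.6 in G1E-ER4, against 89.8 and 92.1 in G1E. Of the 14 members 5 held GATA, 5 held CTCF and 1, at the heme enzyme gene Cpox, held the composite.

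Of 28 red cell membrane and skeleton genes 11 (39.3%, 23.6 to 57.6) had a member, 19 members in all. Of these 10 held GATA, 6 held the composite and 1 held CTCF. Spnb1, beta spectrin of the membrane skeleton, had 3 in its introns. The first, with 3 GATA motifs and a composite, had 94.1 and 91.6 in G1E-ER4, against 92.9 and 97.3 in G1E, and the second, with 2 and a composite, had 82.2 and 90 in G1E-ER4, against 92.2 and 95 in G1E. The states overlapped at the first and not at the second. Spnb1 lies on chromosome 12, among the chromosomes left out above for Ftl1, and the part of the chromosome in its values was not tested. Gypc, glycophorin C, had 3 members, the highest with 3 GATA motifs and a composite, at 97 and 94.3 in G1E-ER4, against 91.2 and 93.7 in G1E. Slc2a1, the glucose transporter GLUT1, had 2, and Fam38a, the mechanosensitive channel Piezo1, had 2. The higher Fam38a member held a composite and had 85.9 and 81.5 in G1E-ER4, against 92.2 and 94.7 in G1E.

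Of 23 erythropoietin and Kit signalling genes 8 (34.8%, 18.8 to 55.1) had a member. Pim1, a survival kinase induced by STAT5, had 5, at 10153 to 53366 bp from its start and with mean percentiles of 86.2 to 89.4. Socs1 and Cish, feedback inhibitors of cytokine signalling, had 2 and 1, and Tspan33, a membrane protein of red cell precursors, had 1 with a composite. Of 22 survival and maturation genes 7 (31.8%, 16.4 to 52.7) had a member, and of their 10 members 7 held GATA, 3 held the composite and none held CTCF. Ccnd3, cyclin D3, which controls the number of terminal erythroid divisions, had 3 in its introns. The highest had 99.6 and 96.1 in G1E-ER4, against 95.7 and 96.9 in G1E. The next had 99.5 and 94.5 in G1E-ER4, against 96.1 and 94.9 in G1E. Both overlapped between states. Btg2, an inhibitor of proliferation, had 2, the higher one at 98.7 and 99.4 in G1E-ER4, against 96.9 and 98.3 in G1E. Rnf10 and Id1, an inhibitor of helix-loop-helix factors, had 1 each. Bcl2l1 encodes the survival protein BCL-XL, and its intron member, shown above, had 87.3 and 82.8 in G1E-ER4, against 83.1 and 86.3 in G1E.

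For other cell types the counts depended on how a gene is assigned. By the nearest gene they were 4 of 22 lymphoid genes (Cd2, Tcf7, Blk and Tbx21), of which 3 had a CTCF motif at their member and none had GATA. They were 2 of 24 mast cell, granulocyte and monocyte genes (Cebpe and Emr1), 1 of 20 megakaryocyte genes (Gp9) and 0 of 17 liver and neural genes, which by 3 counts of the 17 allows a share of up to 17.6%. The 18.2% of lymphoid genes (7.31 to 38.5) were not below the 14% of all genes. With a member within 100000 bp of a start instead, the shares were 66.7% of the mast cell, granulocyte and monocyte genes and 40.9% of the lymphoid genes. They were 90.9% of the erythroid factor genes, 80.8% of the heme and iron genes, 54.5% of the progenitor regulators and 57.1% of the membrane genes. Housekeeping genes stood at 70.0%, megakaryocyte genes at 45.0%, liver and neural genes at 17.6% and all genes at 40.8%. By this measure housekeeping genes were thus above the progenitor regulators and the membrane genes, and below the erythroid factor and heme genes. By the nearest gene, housekeeping genes had 6 of 20 (30%, 14.5 to 51.9), with 3 members at Actb and 1 each at Eef1a1 and Rpl32 among them. Cell cycle genes had 7 of 23 (30.4%, 15.6 to 50.9), with Ccne1 at 2, and with Ccnd3, E2f2 and Cdkn1b shared with other lists. The intervals of the housekeeping and the erythroid factor genes overlap. The lists hold no RNA values, so cell identity was not checked by expression.

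Several well known erythroid loci had no member as nearest neighbour, which depends on how a gene is assigned, and these loci were chosen after their values were seen. None of 7 globin genes was the nearest gene of a member, which by 3 counts of the 7 allows a share of up to 42.9%. Within 100000 bp of the Hba-a1 start, however, lay 4 members. Introns of Nprl3, which hold known enhancers of the alpha-globin genes, held 2 of them. The one with the composite lay 37640 bp from the Hba-a1 start and had 91.4 and 92.3 in G1E-ER4, against 89.9 and 94.3 in G1E. The one with a single GATA motif lay 32440 bp from it and had 83.1 and 82.8 in G1E-ER4, against 81.3 and 90.2 in G1E. At both the states overlapped. Gata2 had 5 members within that distance, nearest to Rpn1 or Dnajb8, and Zfpm1, the GATA1 cofactor FOG1, had 4, all in introns of Zfpm1 or of Gm20388, with Trhr2 or Zc3h18 as the nearest. Klf1, a master factor of red cell genes, had 4. The nearest of them, at 12224 bp, lay in introns of both Dnase2a and Mast1 and held CTCF, and 51.6% of its tags were repeated. Myb, Gata1 and Hbb-b1 had none. Weaker distal regions, present in all 4 lists, were nearest to Myb (4), Gata1 (1) and the beta-globin genes Hbb-y (3) and Hbb-b2 (1).

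The genes nearest to most members were not from the erythroid lists. Of the 3113 nearest genes 2309 had 1 member, 243 had 3 or more and 12 had 6 or more. Zfp217, a zinc finger gene whose human relative is amplified in tumours, had 9, spread over chr2:169926168-170049000 with mean percentiles of 83.1 to 93.1. Of the 9, 3 held GATA, 1 of them the composite, and 1 held CTCF. Cebpb, a factor of myeloid differentiation, had 6, of which none held GATA and 1 held CTCF, and the highest, 20732 bp wide, had 99.6 and 98.0 in G1E-ER4, against 98.3 and 97.6 in G1E. Chd2, a chromatin remodeller gene, had 6, of which 3 held CTCF and 1 held GATA. Trak1, a mitochondrial transport adaptor gene, had 6 in its introns, and Gse1 had 6 in introns of the overlapping Gm20388. Idh2, the mitochondrial isocitrate dehydrogenase gene, Prrc2b, Micall2 and Gm10941 had 6 each. At Gm16382 all 6 members had repeated sequence, with 97.3% of tags or more repeated, so these places cannot be told apart by the tags.

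At the rank limit the members just inside were nearest to Idh2, Padi6 and Tmem14a, with their lowest percentile, less than 0.1 above the limit of 75, in G1E list 1, G1E list 1 and G1E-ER4 list 2. The regions just outside were nearest to Apol7a, Dnaja2 and Tmem106c, with their lowest percentile, less than 0.1 below the limit, in G1E-ER4 list 1, list 1 and list 2. The Padi6 member had 84.4 and 80.8 in G1E-ER4, against 75 and 83.7 in G1E. The Apol7a region had 75 and 79.8 in G1E-ER4, against 80.2 and 78.3 in G1E.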

How the data were processed

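DNase-seq had been run on 1 G1E-ER4 sample and 1 G1E sample. Per the series' design text, 20-base tags were aligned to mm9 with Bowtie, keeping tags that map to several places, lanes were combined with SAMtools, and F-seq made a density signal from which peaks were called. Their versions and the peak threshold used were not stated in the sources used here. The deposited signal of each peak, in the authors' 4 lists, was read as a signal without a stated scale and turned into a percentile of its list. Peaks overlapping by at least 1 bp were merged, and distances were taken to protein-coding transcript starts of the GENCODE annotation on NCBIM37, the same assembly as mm9. Letters were searched within 100 bp of the best summit for 19 patterns. Copies of each 20-base tag were counted over the genome. Gene symbols of 13 lists matched in 276 of 280 cases, older symbols through RefSeq names. Shares carry 95% Wilson intervals. Scripts used Python 3.11.15, numpy 2.4.6, pandas 2.3.3, scipy 1.17.1, pysam 0.24.0 and matplotlib 3.10.9, and the merging, ranking and motif search were tested on simulated data. With 1 sample a state no test between states was possible. Genes named were the nearest genes of the 10 highest members, the 10 genes with most members, up to 4 genes with most members per list, the 5 largest differences each way, 3 regions on either side of the rank limit and the members whose sequences are shown. A few genes that this rule names are not reported here. Any other gene with values, among them further genes of the lists, was chosen after its values were seen. Members and lists were chosen with earlier results of these data known. Alternatives were other rank and distance limits, merging, summit rules, annotation, windows, chromosomes and each list left out, and, chosen after seeing the data, regions without repeated sequence and every alternative for the CTCF share.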

Additional observations from a re-analysis of the deposited data

How the results depend on the processing

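The number of members was 616 with the top 10% in every list and 9011 with the top 50%, and leaving out a list gave 4688 to 5525. The GATA share was 22.2% with the top 10%, 24.1% with summits of the 4 lists within 200 bp, 27.0% with starts of all annotated transcripts, 16.4% within 50 bp of the summit and 36.7% within 200 bp, and 25.4 to 26.1% leaving out a list. The composite share was 5.47% with the top 50%, 4.27% within 50 bp and 7.69% within 200 bp, and 6.19 to 6.23% leaving out a list. The CTCF share was 13.5% with the top 10%, 25.5% with the top 50%, 30.4% with summits within 200 bp and 25% within 50 bp of the summit, and 24.6 to 27.6% leaving out a list. The share inside a gene was 39.1% with the top 10%, 49.8% with the top 50%, 45.4% with a least distance of 10 kb and 45.5% with all transcript starts, and 47.9 to 48.7% leaving out a list. Median width was 3014 bp with the top 10%, 1865 bp with the top 50%, 2032 bp with summits within 200 bp, 2195 bp with a least distance of 10 kb, 2185 bp with all transcript starts and 2483 bp with peaks within 150 bp merged, and 1807 to 2112 bp leaving out a list. Members higher in both G1E-ER4 lists were 14.1% with the top 10% and 20.1% without chromosomes 3, 7, 9 and 12, and 34.1 to 52.1% leaving out a list, the highest without G1E-ER4 list 2. Members higher in both G1E lists were 16.0% with the top 50%, and 20.4 to 36.5% leaving out a list, the highest without G1E-ER4 list 1. With a list left out a state has 1 list, so fewer values have to be in order, by construction. A least distance of 2 kb gave 5220 members and a greatest distance of 50 kb gave 3803. These limits, no greatest distance, or leaving out repeated sequence kept each share within the 95% interval of the reported share. No paired analysis was possible because each state is 1 sample. Read depth is unknown, no value carries a spread between cultures, and the window around the summit sets every motif share.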
